A study of Mus musculus with 235 samples.

Results

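The comparison described here set brain punches labelled AMY, for amygdala, from mice given dexamethasone against the same punches from mice given saline. Its members are the libraries of the count table whose columns carry the AMY label, 15 from dexamethasone animals and 15 from vehicle animals, so 30 of the 235 libraries in the series. All animals were male C57Bl/6 mice aged 3 months, killed 4 h after an intraperitoneal injection of either dexamethasone at 10 mg/kg or 0.9% saline, and each library came from 1 animal. The same animals also gave punches labelled CER, PFC, PVN, vCA1, dCA1, vDG and dDG, which serve here to show where the AMY response differed. As a model the design is 1 strain, 1 sex, 1 dose and 1 time, and a punch holds every cell type of the tissue it cut, so fewer cells of a type and less RNA per cell cannot be told apart in any result below.

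Dexamethasone is a synthetic glucocorticoid that activates the glucocorticoid receptor (Nr3c1), a nuclear receptor held in the cytoplasm by chaperones until it binds hormone. The bound receptor enters the nucleus, where it raises transcription of genes with receptor binding sites and lowers that of many others, often by acting through other factors. The amygdala ties sensory cues to fear and stress responses. Its central and medial nuclei are made mostly of GABAergic neurons that carry peptides such as corticotropin-releasing hormone, enkephalin, somatostatin and neurokinin B. Its basolateral nuclei are made mostly of glutamatergic neurons.

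The AMY libraries held 439851 to 1016392 counts, with a median of 607261 counts in the dexamethasone group and 722621 in the vehicle group. The RNA integrity number was 5.69 ± 1.16 after dexamethasone and 6.11 ± 0.80 after vehicle (SD, n = 15 each), and 1 dexamethasone library had a value of 2.2. Neither quantity differed between the groups by more than chance regrouping gave (2-sided permutation test, 100000 resamples, p = 0.277 for RNA integrity and p = 0.494 for the total, both 0.494 after adjustment over the 2 tests). Levels are given as CPM, counts scaled to a common total of 1000000 per library, after correction for library composition. Reads came from the 3' end of transcripts, so a gene's level does not depend on its length.

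Levels of regional markers in the vehicle libraries described what the punches held. Penk, the enkephalin precursor, stood at 900.7 ± 513.6 CPM in AMY (SD, n = 15) against 112.7 ± 46.5 CPM in PVN, the next highest region. Crh stood at 35.8 ± 23.0 CPM and Tac2, the neurokinin B precursor, at 85.3 ± 52.9 CPM, both also highest in AMY, while Prkcd, a marker of central amygdala neurons, stood at 34.2 ± 13.6 CPM against 122.9 ± 79.8 CPM in PVN. Markers of basolateral neurons varied: Lypd1 was highest in AMY, at 207.7 ± 97.3 CPM (PFC 197.2 ± 37.0 CPM), whereas Rspo2 stood at 7.63 ± 6.66 CPM and Slc17a7, the vesicular glutamate transporter of cortical-type neurons, at 30.7 ± 36.0 CPM, against 287.9 ± 67.6 CPM in PFC. The summed level of 8 listed striatal genes ran from 304 to 3703 CPM over the vehicle libraries (median 1885). Over the dexamethasone libraries it ran from 402 to 2844 CPM (median 1193). That sum includes Penk and Ppp1r1b (489.1 ± 346.4 CPM after vehicle), which are also listed as amygdala genes. Without these and Drd2, the mean level of the other 5, as log2 of CPM plus 1, was still uneven. This mean level ran from 2.52 to 7.05 over the vehicle libraries and from 2.63 to 6.38 over the dexamethasone libraries. In 1 vehicle library the summed level of 8 hypothalamic genes reached 991 CPM, against a median of 49.2 CPM in that group.

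Dexamethasone raised 305 of the 8611 genes tested in AMY (3.54%) and lowered 179 (2.08%), so that 5.62% of the tested genes passed an adjusted p of 0.05 in edgeR's quasi-likelihood test. The genes that rose did so by a median of 0.64 on the log2 scale, and 70 of them at least doubled. The genes that fell did so by a median of 0.58, and 20 of them at least halved, while the median change of all tested genes was -0.01. In 30 genes (0.348% of those tested) every dexamethasone library lay above every vehicle library, and in 7 (0.0813%) every dexamethasone library lay below. Libraries were prepared on 4 plates, and 474 of the 484 changed genes moved in the same direction on all 4. These genes were called on the same libraries, so that agreement is not independent of the call, and the share over all tested genes was not computed.

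Among the genes at 10 CPM or more, and leaving out Cdkn1a, Cx3cr1 and Fkbp5, the largest rise was that of Pmaip1, which encodes the cell death protein Noxa. It stood at 0.00, 2.39 and 8.15 CPM in the vehicle libraries (lowest, median and highest, as in all such triplets below) and at 10.4, 27.2 and 43.3 CPM after dexamethasone, a change of 3.21 ± 0.25 (log2 fold change ± SE, adjusted p = 1.21e-12). The 2 groups did not overlap. Plin4, a coat protein of lipid droplets, went from 1.62, 7.01 and 29.0 CPM to 25.2, 62.7 and 111 CPM (2.84 ± 0.27, adjusted p = 1.68e-10), with 14 of 15 dexamethasone libraries above the highest vehicle library. Ms4a6b, a four-pass membrane protein best known from immune cells, went from 1.33, 5.82 and 10.4 CPM to 20.2, 36.9 and 54.7 CPM without overlap (2.62 ± 0.19, adjusted p = 1.64e-13). The same absence of overlap held for Zfp36, which binds AU-rich messages and speeds their decay (2.17 ± 0.17), for Slc25a13, the mitochondrial aspartate-glutamate carrier (1.99 ± 0.19), for Errfi1, a feedback inhibitor of the EGF receptor (1.97 ± 0.15), for the galactosyltransferase B4galt1 (1.88 ± 0.16) and for Synm (1.87 ± 0.12). Hr, a nuclear corepressor, rose by 1.98 ± 0.32 but spread widely, from 11.3 to 142.7 CPM after dexamethasone and from 4.25 to 45.4 CPM after vehicle. The list of the 12 strongest risers was completed by the transcription factors Zbtb16 (1.97 ± 0.20) and Mafk (1.93 ± 0.19) and the small membrane protein Smim3 (1.90 ± 0.15).

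The 12 fallers at the same minimum level included endothelial, microglial and oligodendrocyte genes and others with no such assignment here. Trim59, an E3 ubiquitin ligase, went from 63.1, 92.0 and 157 CPM to 11.0, 20.4 and 37.9 CPM, a change of -2.12 ± 0.16 (adjusted p = 7.18e-13) with no overlap between the groups. Kdr, the main receptor for vascular endothelial growth factor on endothelium, went from 23.1, 30.6 and 47.9 CPM to 2.37, 9.61 and 17.5 CPM, again with no overlap (-1.67 ± 0.17, adjusted p = 7.87e-10). Sall1, a transcription factor that in adult brain marks microglia, also separated fully, from 20.2, 35.4 and 44.8 CPM to 5.04, 11.9 and 19.5 CPM (-1.43 ± 0.15, adjusted p = 3.12e-09). Nkx6-2 and Sox10, transcription factors of the oligodendrocyte lineage, changed by -1.78 ± 0.23 and -1.22 ± 0.15, and Aspa, the oligodendrocyte enzyme that splits N-acetylaspartate, by -1.35 ± 0.20. The surface protein Mcam of vessel walls (-1.50 ± 0.20), the Cdc42 effector Cdc42ep1 (-1.41 ± 0.21), the hyaluronan-binding protein Tnfaip6 (-1.40 ± 0.16), the Ras activator Rasgrp3 (-1.22 ± 0.16), the predicted gene Gm28322 (-1.19 ± 0.22) and Frmd8 (-1.18 ± 0.19) completed the 12. In each of these last 9 genes some dexamethasone libraries lay within the vehicle range.

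**Figure D1:**
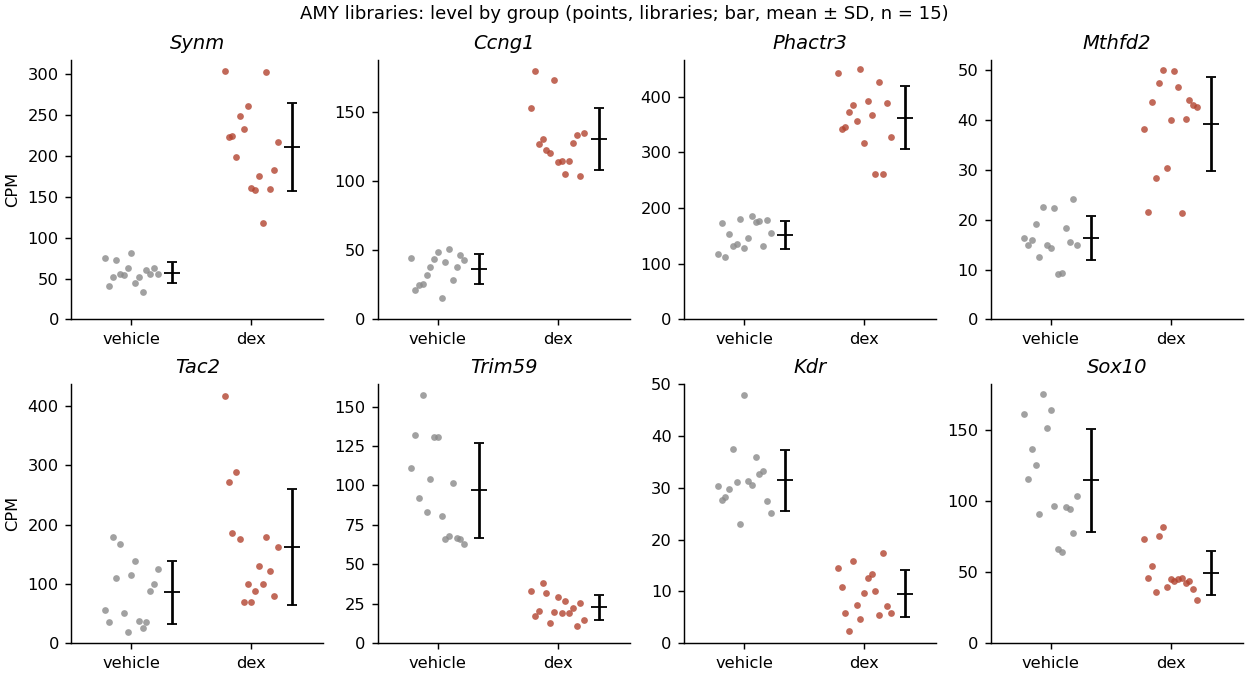
Level in CPM (vertical axes, linear and starting at 0) of 8 genes in the AMY libraries of each group; each point is 1 library and the bar is the mean ± SD of 15. Synm, Ccng1, Phactr3, Trim59 and Kdr do not overlap between the groups, whereas Tac2 overlaps widely.

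In the list of glucocorticoid response genes 15 of the 16 tested members passed and all of these were higher, with a median change of 1.18 over the 16. Over all genes tested 3.54% were higher and the median was -0.01. The list was drawn up with earlier results of these data known, so its count is a description and no independent test. Beside the genes given above, Nfkbia, the inhibitor that holds NF-kappaB in the cytoplasm, went from a median of 141 CPM to 406 CPM (1.55 ± 0.11, adjusted p = 4.92e-14). Ddit4, which restrains mTOR complex 1, changed by 1.30 ± 0.12, the kinase Sgk1 by 1.23 ± 0.22, Tsc22d3, which encodes GILZ, by 1.12 ± 0.16, and the metallothioneins Mt2 and Mt1 by 0.95 ± 0.09 and 0.53 ± 0.08. Per1, a clock gene in the same list, stood at 0.32 with an adjusted p of 0.392. Of 14 tested steroid receptors, receptor cofactors and steroid enzymes, only Nr3c1 itself passed, a share near the 5.62% over all genes, at -0.56 ± 0.12 (median 87.1 to 60.5 CPM, adjusted p = 0.00109). The mineralocorticoid receptor Nr3c2 stood at -0.30 with an adjusted p of 0.443.

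Promoter sequence was examined for the glucocorticoid response element, in which the receptor dimer reads a pair of inverted repeats around a spacer of any bases. RefSeq promoter windows (build GRCm38.p6, 250 bases before to 50 after a start) were found for 252 of the risers and 135 of the fallers. On both strands, 7 spellings were searched, from the full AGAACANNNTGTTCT to the single repeat AGAACA. The spelling GNACANNNTGTNC was in the windows of 7 risers (2.78%) and of 0 fallers, against 26 of 6835 tested genes with a window (0.38%) and 145 of 27025 genes in the whole table (0.537%). The repeat AGAACA alone was in 15.1% of risers, 15.6% of fallers and 13.8% of tested genes. Of the 44 genes with a window among the 55 named by size or by regional difference, 1 held even the shorter core ACANNNTGT: Znfx1, 161 bases before a start. That core was in 10.3% of risers, 2.96% of fallers and 4.77% of tested genes. The sequences of 4 of the 7 matching risers are shown as examples, and they were chosen after their values were seen. The choice does not follow closeness of match. A stricter spelling, with 1 more fixed base, was in 5 risers. All the matching risers not shown hold this stricter spelling, whereas Txnip and Tinagl1 do not. Capitals mark the match, each sequence reads 5′ to 3′ on the strand of its gene, and the match lies 188 bases before the start in Sgk1 (chr10:21993702-21993714, plus strand), 94 in Mt1 (chr8:94178995-94179007, plus strand), 172 in Txnip (chr3:96557785-96557797, plus strand) and 147 in Tinagl1 (chr4:130174937-130174949, minus strand).
Sgk1: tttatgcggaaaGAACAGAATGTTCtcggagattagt
Mt1: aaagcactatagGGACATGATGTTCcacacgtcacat
Txnip: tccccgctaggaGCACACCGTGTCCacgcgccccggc
Tinagl1: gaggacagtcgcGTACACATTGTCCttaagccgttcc

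Of these, Sgk1 holds the full 15-base spelling and is the only tested gene that does. Sgk1 went from 25.5, 91.0 and 263 CPM to 127, 254 and 326 CPM, so the groups overlapped. Txnip, an inhibitor of thioredoxin and of glucose uptake, went from a median of 21.3 to 47.5 CPM (1.07 ± 0.15, adjusted p = 1.19e-06). Tinagl1, a matricellular protein, went from a median of 11.65 to 29.65 CPM (1.27 ± 0.17, adjusted p = 4.39e-07). The other matching risers were Fam107a, Map7d2 and Ptpdc1, at 0.47 ± 0.09, 0.39 ± 0.09 and 0.64 ± 0.13. A match in such a window is a description and no evidence that the receptor bound there.

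Over all genes tested 3.54% were higher and 2.08% lower, and the counts of the metabolic lists are given against these shares. Lists share members, so a call can be counted in more than 1 of them. Sgk1 and Ddit4 in the insulin list, Plin4 in the lipid list and Mt1 and Mt2 in the metal list were already counted among the response genes. In the list of insulin, FoxO and mTOR control 7 of 30 tested genes were higher and 1 was lower. Sgk3, a kinase related to Akt, went from 9.36, 31.9 and 50.9 CPM to 54.2, 112 and 144 CPM with no overlap (1.74 ± 0.16, adjusted p = 1.56e-10). Irs2, the adaptor below the insulin receptor, also separated fully (0.97 ± 0.08, adjusted p = 2.09e-11), and Klf15 and Trib1 rose by 1.17 ± 0.15 and 1.02 ± 0.14. The fall was that of Pik3r3, a regulatory subunit of phosphoinositide 3-kinase (-0.45 ± 0.13, adjusted p = 0.0210), and it did not pass in DESeq2 (adjusted p = 0.0557). In the list of lipid droplet, fatty acid and fuel switch genes 7 of 28 were higher and none was lower. Pnpla2, the lipase that starts the breakdown of stored triglyceride, went from a median of 16.3 to 61.6 CPM (1.81 ± 0.17, adjusted p = 1.60e-10). Smaller rises were those of the glycerol phosphate dehydrogenase Gpd1 (1.02 ± 0.18), the mitochondrial carrier Ucp2 (0.85 ± 0.20), the nuclear receptor Ppard (0.71 ± 0.20) and the phosphatidate phosphatases Lpin1 (0.52 ± 0.14) and Lpin2 (0.39 ± 0.10), the last 2 not passing after thinning to the lowest AMY total (adjusted p = 0.0924 and 0.0516). Of 20 sterol genes only the cholesterol exporter Abca1 passed (0.72 ± 0.12), a share near that over all genes. In the list of metal, redox and detoxification genes 6 of 21 were higher, among them xanthine dehydrogenase, Xdh (1.74 ± 0.21). The 1 lower was Slc30a10, a manganese exporter (-0.55 ± 0.16), which did not pass in DESeq2 or with no filter (adjusted p up to 0.0546). Ptgds, which makes prostaglandin D2 in glia, meninges and choroid plexus, went from a median of 342 to 697 CPM (0.87 ± 0.16). The summed level of 8 choroid plexus genes ran from 302 to 2743 CPM after vehicle and from 317 to 8672 CPM after dexamethasone, with medians of 418 and 377 CPM, and its part in that rise was not tested.

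The next lists, of cell cycle and cytoskeletal genes, are set against the same 3.54% higher and 2.08% lower. In the list of p53 targets and cell cycle inhibitors 5 of 15 were higher, namely Cdkn1a, Ccng1, the stress protein Trp53inp1 (1.45 ± 0.11), Sesn1 (0.49 ± 0.11) and the antiproliferative Btg2 (0.64 ± 0.17). Of these, Cdkn1a was also counted among the response genes and Sesn1 in the insulin list. Ccnd1, cyclin D1, was lower (-0.74 ± 0.10, adjusted p = 3.98e-07), while the p53 regulator Mdm2 stood at 0.17 (adjusted p = 0.480). Of 30 small GTPase and actin regulators 8 were higher and 2 lower. Phactr3, which binds actin and protein phosphatase 1, went from 111.5, 153 and 185 CPM to 260, 366.5 and 449 CPM with no overlap (1.25 ± 0.09, adjusted p = 9.07e-14). Phactr4, Rhoj, Rhou and Rhob rose by 1.39 ± 0.18, 1.00 ± 0.21, 0.99 ± 0.11 and 0.68 ± 0.12. The falls were those of Cdc42ep1 and Cdc42ep4, 2 effectors of Cdc42. After thinning to the lowest AMY total Cdc42ep4 (adjusted p = 0.0650) and, among the risers, Actn4 (0.0769) and Arhgef3 (0.434) did not pass.

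Among signalling genes, calls went in both directions, and the counts are set against the 5.62% called over all genes tested. In the list of TGF-beta, BMP, Notch, Wnt and Hippo genes 3 of 27 were higher and 4 lower. The 4 were the Notch targets Hes5 (-0.86 ± 0.12), Hey1 (-0.52 ± 0.10) and Hes1 (-0.55 ± 0.14) and the BMP target Id3 (-1.09 ± 0.14, median 128 to 63.9 CPM). Those that rose were Tead1, the DNA-binding partner of the Hippo coactivators, Smad1 (0.64 ± 0.10) and the Wnt coreceptor Lrp6 (0.61 ± 0.10). In the cytokine and NF-kappaB list 10 of 37 genes were high enough to test, and of these Nfkbia and the interleukin 6 receptor Il6ra (1.26 ± 0.16) rose and the chemokine Cxcl12 fell (-0.85 ± 0.16). Of 23 genes of the MAPK feedback list Errfi1, the phosphatase Dusp1 (0.75 ± 0.14, but adjusted p = 0.104 after thinning) and Rasl11b (0.63 ± 0.14) rose and Spry2 fell (-0.61 ± 0.12). Further lists held 2 or 3 calls each. Of 20 clock genes Rora rose (0.36 ± 0.09) and Rorb (-0.40 ± 0.08) and Dbp (-0.62 ± 0.17) fell, and with the replicate number as a block 2 clock genes were higher. Of 24 neurotrophins, growth factors and their receptors Fgfr1 rose (0.47 ± 0.08) and Fgfr2 fell (-0.49 ± 0.13), and with the block 3 were lower. Of 43 axon guidance and adhesion genes Sema6d (-0.62 ± 0.11), Nrp1 (-0.71 ± 0.17) and Efnb3 (-0.36 ± 0.11) fell, Efnb3 not without dexamethasone replicate 9 (adjusted p = 0.0641).

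The lists of receptors and channels that set neuronal excitability held 0 to 2 calls each, and with lists of these sizes such counts are not set apart from the 5.62% called over all genes tested. None of 29 tested glutamate receptor and scaffold genes passed, with values from -0.44 (Homer1) to 0.28 (Grm8). Nor did any of 24 calcium and sodium channel subunits, with values from -0.47 to 0.29, or of 18 genes of monoamine, acetylcholine and endocannabinoid signalling, of which 1 passed with the replicate number as a block. In edgeR 2, 1 and 2 members of these 3 lists had an unadjusted p under 0.05, while DESeq2 called 0 in each. Of 37 potassium channel subunits Kcnk1 (0.41 ± 0.10) and Kcnt1 (0.39 ± 0.12) rose, and with the block 4 were higher. After thinning to the lowest AMY total neither passed (adjusted p = 0.0543 and 0.0706). None of 24 heat shock proteins and chaperones passed in edgeR or DESeq2, and 1 had an unadjusted p under 0.05 in edgeR. Of 17 neuronal activity genes Gadd45g (1.19 ± 0.14) and Btg2 rose and Ier5 fell (-0.57 ± 0.16), while Egr1 (-0.32, adjusted p = 0.558), Arc (-0.27, adjusted p = 0.693) and Junb (-0.47, adjusted p = 0.291) did not pass.

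The peptides for which the central amygdala is known gave 1 call among 16 tested peptide and receptor genes, a share near the 5.62% over all genes tested. Tac2 stood at 17.7, 88.05 and 179 CPM after vehicle and at 68.6, 130 and 418 CPM after dexamethasone, a change of 0.91 ± 0.27 (adjusted p = 0.0381). The groups overlapped, with 5 of 15 dexamethasone libraries above the highest vehicle library. The mean was higher after dexamethasone on each plate, at 96.4 and 111 CPM for vehicle and dexamethasone on plate 1, 109 and 219 CPM on plate 2, 70.6 and 169 CPM on plate 3 and 58.8 and 147 CPM on plate 4. The rise passed with the level of 5 striatal markers as a covariate (0.68, adjusted p = 0.0436), and it missed the threshold in DESeq2 (0.93, adjusted p = 0.0679) and with RNA integrity as a covariate (0.92, adjusted p = 0.0510). Crh stood at 0.32 (adjusted p = 0.684), Gal, the galanin precursor, at 0.74 (adjusted p = 0.298) and Tac1, the substance P precursor, at -0.37 (adjusted p = 0.637).

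Among cell type markers, calls are set against the 3.54% of all tested genes that were higher and the 2.08% that were lower. Of 13 oligodendrocyte markers 6 were lower and none higher: Sox10, Aspa, Opalin (-1.13 ± 0.16), Ermn (-0.61 ± 0.14), Ugt8a (-0.58 ± 0.15) and Mog (-0.58 ± 0.17), the last not passing without dexamethasone replicate 9, the library of lowest RNA integrity (adjusted p = 0.0528). The members that did not pass lay between -0.25 (Mag, adjusted p = 0.625) and 0.16 (Mobp, adjusted p = 0.772). The abundant Mbp stood at -0.05 (adjusted p = 0.946). Mobp was the 1 member of the 13 above 0. The list's median was -0.25, against -0.01 over all genes tested, and its summed level had a median of 10660 CPM after vehicle and 10290 CPM after dexamethasone. None of 6 precursor markers passed in edgeR or DESeq2, and 1 had an unadjusted p under 0.05 in edgeR. Of 15 microglial markers Cx3cr1 and the purinergic receptor P2ry12 (-0.97 ± 0.14, median 42.6 to 20.8 CPM) were lower, 1 of the 15 lay above 0 and the median change was -0.21. The summed microglial list had medians of 1269 CPM after vehicle and 908 CPM after dexamethasone. That sum includes Cx3cr1, which stood at a mean of 226.2 CPM after vehicle and changed by -2.19, so the sum is not a measure of the other members alone. Of 14 endothelial markers 4 were lower, namely Kdr, its relative Flt1 (-0.71 ± 0.10) and the organic anion carriers Slco1a4 (-0.66 ± 0.12) and Slco1c1 (-0.62 ± 0.18, but adjusted p = 0.104 after thinning), and 2 were higher, namely the glucose transporter Slc2a1 (1.23 ± 0.11, median 82.2 to 223 CPM) and the lipid transporter Mfsd2a (1.26 ± 0.12, median 35.4 to 80.0 CPM). The summed endothelial list had medians of 951 and 920 CPM. Sox9 was the only one of 13 astrocyte markers to pass, from a median of 281 to 142 CPM with no overlap (-0.89 ± 0.09, adjusted p = 3.37e-10). None of 7 pan-neuronal, 4 glutamatergic or 7 GABAergic markers passed in edgeR or DESeq2, and 0 had an unadjusted p under 0.05 in edgeR.

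**Figure D2:**
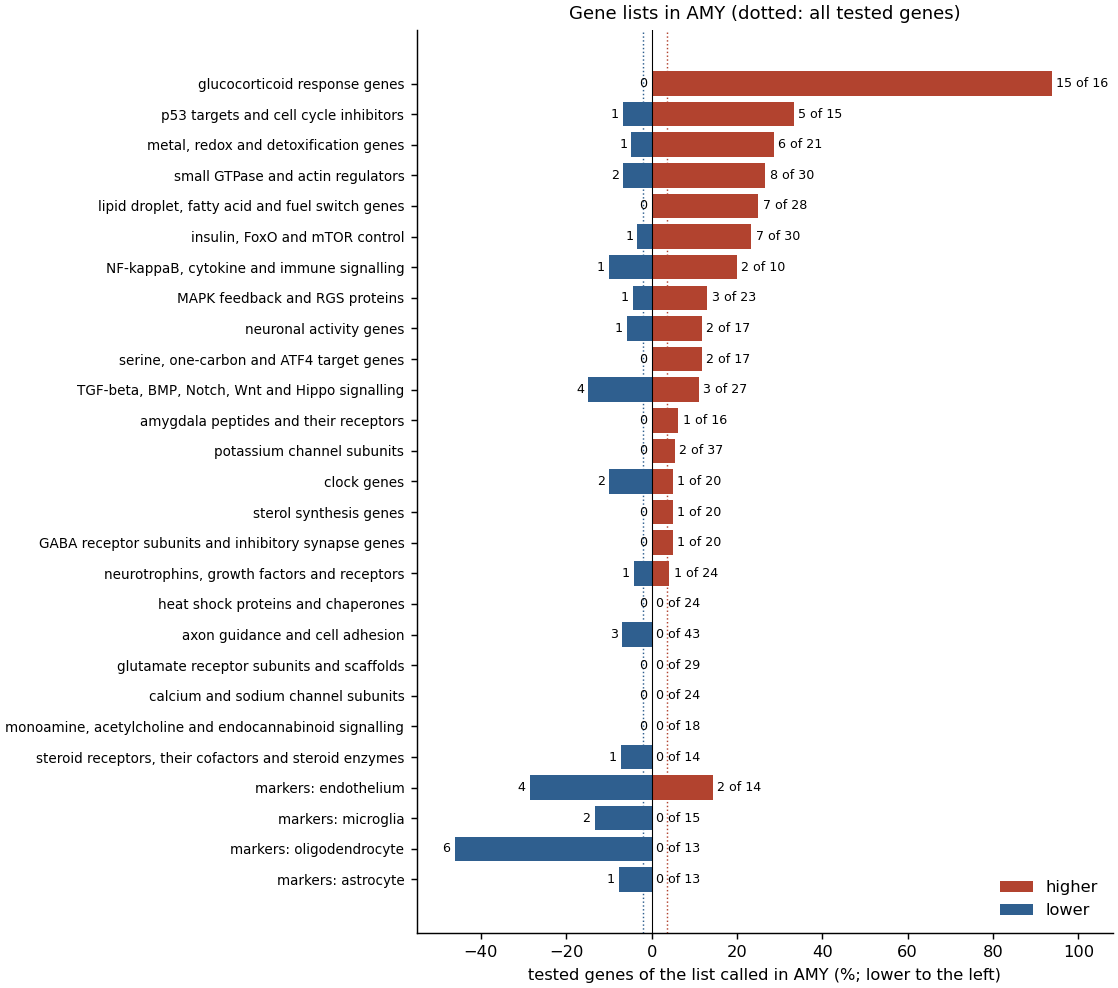
Share of the tested genes of each list that were higher (right) or lower (left) after dexamethasone in AMY, in percent, for lists with at least 10 tested genes; numbers at the bars are counts and dotted lines mark the share over all tested genes. Glucocorticoid response genes stand at 15 of 16 higher and oligodendrocyte markers at 6 of 13 lower, while the lists of glutamate receptors and of calcium and sodium channels hold no call. The lists were chosen with earlier results of these data known.

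Most of the AMY response was shared with other regions. Of the AMY genes tested in CER 70.1% also passed there in the same direction, which is 59.0% of the genes called in CER. The corresponding shares of AMY genes were 65.4% in PVN, 58.7% in vCA1, 56.2% in PFC, 52.5% in vDG, 45.4% in dCA1 and 40.1% in dDG. Of all genes tested, 6.18% were called in CER, 5.63% in PVN, 5.45% in vCA1, 6.14% in PFC, 3.93% in vDG, 4.68% in dCA1 and 3.7% in dDG. Among the 419 changed genes tested in all 8 regions, 101 also passed in each of the 7 others and 40 passed in none, and no gene called in AMY was called in the opposite direction elsewhere. The 272 risers of that set had a median change of 0.59 in AMY, 0.56 in CER, 0.51 in PVN, 0.50 in vDG, 0.48 in vCA1, 0.42 in PFC and dCA1 and 0.38 in dDG. The order was not the same for the 147 fallers, with medians of -0.53 in AMY, -0.50 in vCA1, -0.46 in CER and vDG, -0.44 in dDG, -0.43 in PVN, -0.40 in dCA1 and -0.36 in PFC. The genes were chosen for their change in AMY, so the AMY medians are not independent of that choice.

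A direct test of the AMY response against the mean response of the 7 other regions, in 1 fit of all libraries, called 3 of 11053 genes (0.0271%), and 452 had an unadjusted p under 0.05. In simulated counts this test recovered 44.8% of true differences of 0.5 on the log2 scale and 88.8% of those of 1. Synm, which encodes the intermediate filament protein synemin (chr7:67730160-67759742), rose more in AMY. Its level went from 33.3, 55.9 and 81.4 CPM to 118.5, 217 and 304 CPM with no overlap, a 3.67-fold rise, and the AMY change exceeded the mean of the others by 0.74 ± 0.13 (adjusted p = 0.000194). The vehicle level of Synm was much the same in AMY (57.1 ± 12.7 CPM) as in PFC (56.3 ± 6.71 CPM) and PVN (60.6 ± 13.2 CPM). The dexamethasone level was 211 ± 53.95 CPM in AMY, 110 ± 29.7 CPM in PFC and 147.5 ± 32.05 CPM in PVN (SD). Region by region, the AMY change of Synm exceeded those in vCA1, dCA1, dDG and PFC by 0.90 to 1.09, each past the threshold. The differences from PVN (0.61 ± 0.17, adjusted p = 0.452) and vDG (0.70 ± 0.17, adjusted p = 0.205) did not pass, and the change in CER was 1.89. Ccng1, which encodes cyclin G1 (chr11:40748552-40755311), went from 15.7, 38.1 and 50.6 CPM to 104, 127 and 179 CPM without overlap, and its change of 1.80 ± 0.12 exceeded the mean of the others by 0.71 ± 0.13 (adjusted p = 0.00124). The excess was largest against PFC, where Ccng1 changed by 0.55 (difference 1.26 ± 0.17, adjusted p = 2.92e-08), and was also called against vCA1, dCA1 and dDG, whereas CER had 2.15 and PVN 1.41. In PFC the vehicle level was 67.0 ± 16.9 CPM, against 36.2 ± 10.8 CPM in AMY.

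Mthfd2, a mitochondrial enzyme of folate-dependent one-carbon metabolism (chr6:83305691-83325908), was the gene that rose less in AMY. It went from 9.17, 15.5 and 24.2 CPM to 21.4, 42.6 and 50.04 CPM, and 13 of 15 dexamethasone libraries lay above all vehicle libraries. Its change of 1.30 ± 0.14 was below the mean of the other regions by 0.95 ± 0.18 (log2 scale, adjusted p = 0.00154). Changes of 2.59 to 2.86 in the 5 cortical and hippocampal regions each exceeded that in AMY past the threshold, by 1.30 (dDG) to 1.57 (dCA1), whereas CER (0.90) and PVN (1.08) were close to AMY. After dexamethasone Mthfd2 reached 39.2 ± 9.43 CPM in AMY and 59.0 ± 11.2 to 91.3 ± 28.9 CPM in those 5 regions. After vehicle it stood at 16.3 ± 4.43 CPM in AMY and at 7.92 ± 3.46 to 14.1 ± 6.01 CPM there (SD). None of the other 16 tested genes of the serine, one-carbon and ATF4 list passed that test in edgeR, 0 of them had an unadjusted p under 0.05, and of these only Cebpb passed in AMY itself (0.81 ± 0.18). With the animal as a block Zbtb16 also passed this test (difference 0.68, adjusted p = 0.0377, against 0.65 and 0.256 without the block).

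**Figure D3:**
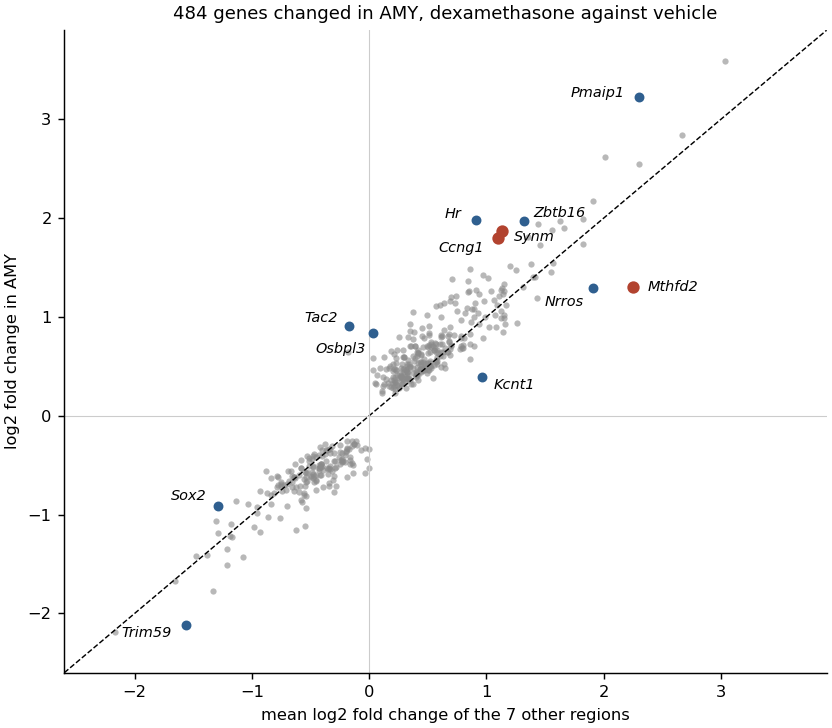
Log2 fold change in AMY (vertical) against the mean log2 fold change of the 7 other regions (horizontal) for the 484 genes changed in AMY, both from the fit of all libraries; the dashed line marks equal change. Synm, Ccng1 and Mthfd2 (red) differed past the threshold, blue marks other genes named in the text, and most points lie near the line.

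Set against single regions, AMY differed most often from dorsal hippocampus and PFC: 22 genes (0.199%) from dDG, 14 (0.127%) from dCA1, 14 (0.127%) from PFC, 7 (0.0633%) from vCA1, 2 (0.0181%) each from CER and PVN and 1 (0.00905%) from vDG, adjusted within each of the 7 contrasts. With the animal as a block the count against PVN was 1. At an unadjusted p under 0.05 the order was not the same, with 653 genes for dDG, 599 for dCA1, 527 for vCA1, 493 for vDG, 442 for PFC, 428 for PVN and 354 for CER. Phactr3 rose by 1.25 in AMY, 1.73 in CER and 1.28 in PVN and stood at 0.40 in PFC, 0.45 in dCA1 and 0.46 in vCA1, with differences of 0.79 to 0.86 from the last 3 regions (each called). Znfx1, an RNA helicase of antiviral defence, rose by 1.48 ± 0.17 in AMY and stood at 0.06 in PFC (difference 1.42 ± 0.21, adjusted p = 8.49e-07). The pyrimidine nucleotidase Nt5c3 rose by 1.21 ± 0.09 in AMY and stood at 0.16 in PFC (difference 1.05 ± 0.17, adjusted p = 3.36e-06). The ribosome biogenesis factor Tma16, the kinase Sgk3, the ubiquitin ligase family member Herc6 and the thyroid hormone deiodinase Dio2 were also called as rising more in AMY than in PFC, by 0.95 to 1.14. Tead1 rose by 1.21 ± 0.11 in AMY, from 31.9, 38.4 and 55.2 CPM to 57.9, 91.1 and 130 CPM without overlap, and stood at 0.23 in dCA1 and 0.29 in dDG (differences 0.98 ± 0.17 and 0.92 ± 0.16). The transcription factor Sox4 showed the same order, with 1.13 ± 0.12 in AMY, 0.21 in dCA1 and 0.31 in dDG (differences 0.91 ± 0.18 and 0.82 ± 0.17), while PFC had 0.98. In the other direction, the sodium-activated potassium channel Kcnt1 rose by 0.39 in AMY and 2.26 in dCA1 (difference -1.87 ± 0.34, adjusted p = 0.000193). Its vehicle level was 53.8 ± 11.2 CPM in AMY and 7.04 ± 4.14 CPM in dCA1, and after dexamethasone it stood at 69.8 ± 16.6 and 35.7 ± 14.5 CPM (SD).

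**Figure D4:**
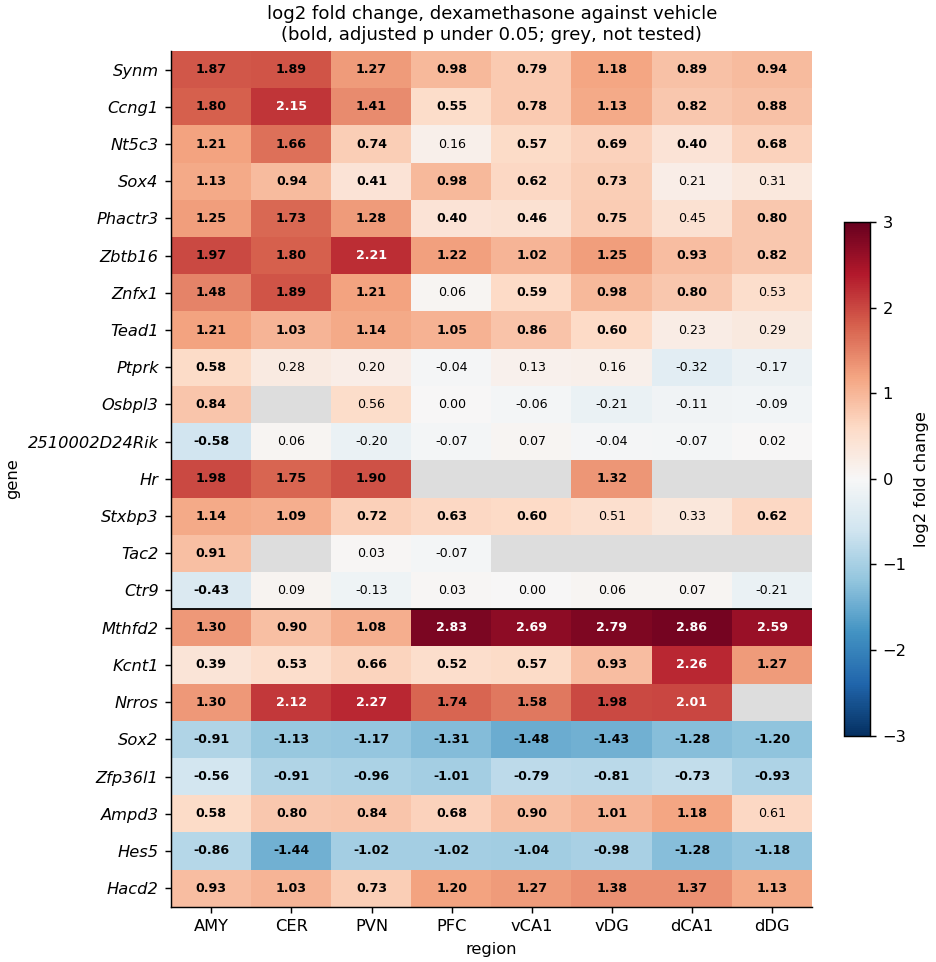
Log2 fold change after dexamethasone (colour and number) in each of the 8 regions (columns) for the 15 genes with the smallest p among those that changed more in AMY than the mean of the others (above the line) and the 8 that changed less (below); bold marks an adjusted p under 0.05 and grey a gene not tested. For Synm, Ccng1, Nt5c3, Phactr3 and Znfx1 the values in CER are at or above those in AMY, and Mthfd2 is lowest in CER, PVN and AMY.

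For several genes called in AMY and in none of the other regions where they were tested, the test against the mean of the others did not pass. Ptprk, a receptor tyrosine phosphatase and one of the genes called in AMY alone, rose by 0.58 ± 0.16 (from 10.6, 27.4 and 38.3 CPM to 20.8, 38.3 and 62.1 CPM, adjusted p = 0.0144) and lay between -0.32 and 0.28 in the 7 others (difference 0.55 ± 0.15, adjusted p = 0.256). Against dCA1 alone the difference was called (0.90 ± 0.19, adjusted p = 0.00768). After thinning to the lowest AMY total the AMY change of Ptprk itself was 0.39 and did not pass (adjusted p = 0.424). Osbpl3, a sterol-binding protein, rose by 0.84 ± 0.19 (median 15.6 to 33.4 CPM) and lay between -0.21 and 0.56 in the 6 regions where it was tested, with 0.56 in PVN (difference 0.81 ± 0.22, adjusted p = 0.264). For Tac2 the difference was 1.08 ± 0.32 (adjusted p = 0.464). Of the other regions Tac2 was high enough to test only in PFC (-0.07) and PVN (0.03), and its vehicle means in CER, dCA1, vDG and vCA1 were 4.51 to 8.28 CPM. Against dDG the difference was called, at 2.58 ± 0.45, but there the vehicle level of 34.8 ± 61.45 CPM was very uneven and the gene was too low to be tested within that region. The uncharacterised gene 2510002D24Rik (-0.58 ± 0.14) and Ctr9, a subunit of the PAF1 elongation complex (-0.43 ± 0.11), fell in AMY and lay between -0.21 and 0.09 elsewhere, with adjusted p of 0.314 and 0.464 for the difference. Ptprk, Osbpl3, Tac2, 2510002D24Rik and Ctr9 were all picked for a small p in this same test of the difference.

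The 40 genes called in AMY alone, of 7924 tested in all 8 regions, were 18 risers and 22 fallers of small size. The 12 with the smallest p were Jade1, 4930402H24Rik, Sec24d, Ryk, Rwdd2a, Rcc2, Phf21a, 2510002D24Rik, Gnb4, Nol4l, Plcb4 and Dip2a, with changes from -0.58 to 0.53. After thinning to the lowest AMY total 4 of these, Rcc2, Phf21a, Nol4l and Dip2a, did not pass in AMY (adjusted p = 0.246, 0.0738, 0.178 and 0.176). Jade1, a scaffold of a histone acetyltransferase complex, went from 64.1, 88.7 and 109 CPM to 52.4, 64.5 and 92.4 CPM (-0.40 ± 0.09, adjusted p = 0.00168) and stood at -0.32 to -0.12 in the other regions. Gnb4, a G protein beta subunit, changed by -0.58 ± 0.14 and stood at -0.30 to 0.03 elsewhere, and Plcb4, a phospholipase C, changed by 0.48 ± 0.12 and stood at -0.17 to 0.61 elsewhere. For none of the 40 did the difference from the mean of the others pass in edgeR or in DESeq2, and 17 had an unadjusted p under 0.05 for it in edgeR. In simulated counts the edgeR test of that difference recovered 44.8% of true differences of 0.5 on the log2 scale, so differences of that size can be missed. Of the 40, 32 of them reached an unadjusted p below 0.05 for dexamethasone in 1 or more of the others, and 18 moved in the same direction in all 7. Against single regions, Ptprk was the only one of the 40 with a called difference, that from dCA1 given above.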

How the data were processed

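Single-end 3' tag libraries with molecular identifiers were made from tissue punches, per the labels' protocols. The authors deposited counts per gene for 27998 genes in 235 libraries; the submitters' processing notes name UMI-tools 0.5.4, STAR 2.6.0a, featureCounts 1.6.4 and build mm10, and the annotation and the strand setting are not given in the sources used here. The deposited variance-stabilised log2 table served only to list the AMY libraries it holds (30). Counts were tested with edgeR 4.0.16 (TMM scaling, filterByExpr by group, quasi-likelihood F test, Benjamini-Hochberg adjustment over all tested genes, threshold 0.05, R 4.3.3). The difference between regions was a contrast in 1 fit of the 16 groups. Libraries of 1 animal were treated as independent there, with the animal as a block as an alternative.

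Named genes were (a) the 12 risers and 12 fallers of largest change at a mean of 10 CPM or more, (b) the 15 and 8 with the smallest p for a larger or smaller response than the other regions, (c) the 12 with the smallest p among those called in AMY alone and (d) called members of the lists. Members and lists were chosen with earlier results of these data known. Same-numbered animals shared a plate in 15 of 15 pairs; the deviations of same-numbered libraries correlated with a median of 0.159 (lowest -0.154, highest 0.421), so the replicate number was taken as a pairing by plate. Both tests were tested on simulated counts with known changes. The AMY test recovered 74.7% of changes of 0.5 on the log2 scale and 98.9% of changes of 1. The test against the mean of the other regions recovered 44.8% and 88.8%. False calls made up 2.35% of the calls of the AMY test and 1.52% of those of the other. No 2 libraries of a group agreed within sampling noise. A few genes are not reported here.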

Additional observations from a re-analysis of the deposited data

Results flagged for a closer look

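In 23 genes called in AMY the response differed from that of another region, or from the mean of the 7 others, by a test of the difference itself; Cdkn1a and Fkbp5 were left aside. Values are the AMY log2 fold change minus that of the other region, and no explanation was tested. Against the mean of the others Synm (0.74) and Ccng1 (0.71) rose more and Mthfd2 differed by -0.95.

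Some of these genes differed from more than 1 region; each is placed here under the single region with the smallest p, so the lists are not complete for a region. Under PFC the larger AMY rises were those of Znfx1 (1.42), Sgk3 (1.14), Tma16 (1.13), Nt5c3 (1.05), Herc6 (0.99), Dio2 (0.95) and Phactr3 (0.86). Cpox, an enzyme of heme synthesis, differed by -0.6, with a change of -0.48 in AMY and 0.13 in PFC. Under dCA1 the larger AMY rises were those of Mycl (1.11), Tead1 (0.98), Sox4 (0.91) and Ptprk (0.9), while Kcnt1, which rose less in AMY, differed by -1.87. Under dDG they were those of Tac2 (2.58), Zbtb16 (1.14), Elmsan1 (1.13), Vangl1 (1.06), Rnpep (0.77) and Maf (0.71). Tac2 was too low to be tested within dDG, where its median was 7.69 CPM after vehicle and 7.2 CPM after dexamethasone and the vehicle libraries reached 205.1 CPM. Under CER the transcription factor Pou2f2 differed by -1.07, with a change of -0.93 in AMY and 0.14 in CER.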

How the results depend on the processing

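The count of 484 changed genes in AMY was 292 with at least 10 counts required in every AMY library, where fewer genes were tested (5601), and 784 with 4 surrogate variables, 479 of them shared with the 484; for the latter the cause was not tested. The replicate block gave 598 genes. The count was 650 in edgeR with no filter and 667 in DESeq2, each with 18836 genes tested. It was 341 after thinning to the lowest total and 525 with the striatal marker level as a covariate, an alternative chosen after seeing the data. The test against the mean of the other regions called 1 gene with the 10-count filter, where fewer genes were tested, and 4 with the animal as a block; that against PVN called 1 with the block. Genes called in AMY alone numbered 8 when an unadjusted p of 0.05 or more was required in all 7 other regions and 82 with no filter, 27 of them shared with the 40.

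In the lists, the fit with the replicate block gave other counts: higher calls were 1 in the monoamine list, 4 in potassium channels, 2 in clock genes, 8 in the lipid list and 7 in the metal list. Lower calls were 5 in the list of TGF-beta, BMP, Notch, Wnt and Hippo genes, 3 in neurotrophins, 2 in insulin, FoxO and mTOR control, 2 in MAPK feedback, 1 in central and medial amygdala markers and 1 in striatal markers. The block ended no call of the 132 named genes. Of these, 16 missed the threshold after thinning (Ampd3, Rcc2, Phf21a, Nol4l, Dip2a, Ptprk, Kcnt1, Kcnk1, Actn4, Arhgef3, Cdc42ep4, Dusp1, Lpin1, Lpin2, Pik3r3 and Slco1c1), 3 in DESeq2 (Tac2, Pik3r3 and Slc30a10), 2 without the libraries of RNA integrity under 4 (Efnb3 and Mog), 1 with RNA integrity as a covariate (Tac2) and 1 with no filter (Slc30a10). No result turned direction under any alternative run. With 15 libraries a group no single library was left out other than by RNA integrity. The filter on low counts left 8611 of 27998 genes to test, and 7496 after thinning.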
